A study of Mus musculus with 6 samples.

Results

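The genes described here encode the MHC class II antigen presentation machinery of the mouse: the chain genes H2-Aa, H2-Ab1 and H2-Eb1, the peptide-loading genes H2-DMa, H2-DMb2 and H2-Oa, the invariant chain gene Cd74 and the transactivator gene Ciita. They were taken as a list of 8 gene symbols in the annotation of the arrays. All 8 were represented, among 12393 genes with a probe set that carried 1 symbol. Each gene was represented by its brightest such probe set, that is, the one with the highest mean log2 intensity over the 6 arrays. The data are Affymetrix 3′ microarrays of total RNA from CD11c-positive conventional dendritic cells (DCs), the antigen-presenting cells that prime T cells, isolated by cell sorting. There were 3 arrays labelled spleen and 3 labelled lymph node, numbered 1 to 3 in each group. All cells came from mice of the inbred strain BALB/c, and the labels give no treatment, genotype or age. Whether the 3 arrays of a group were separate animals or pools is not given, so the p-values cover only array-to-array spread, which may be technical.

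MHC class II molecules display peptides from endosomes to CD4 T cells. Their alpha and beta chains assemble in the endoplasmic reticulum on the invariant chain, which blocks the peptide groove and directs the complex to endosomes. There the invariant chain is degraded to a short fragment, CLIP, the DM heterodimer exchanges CLIP for peptide, and the DO heterodimer holds DM in check. Transcription of the chain, DM and invariant chain genes depends on CIITA, a coactivator that binds no DNA itself and is recruited by factors on the X and Y boxes of their promoters.

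Several features of the arrays bear on the values below. The median intensity of an array was 39.4 to 41.3, and precision was limited by the number of arrays. Itgax, which encodes CD11c itself, had intensities of 856, 1152 and 939 in the arrays labelled spleen, against 1879, 1845 and 2006 in those labelled lymph node. Ccl22, Ccr7 and Fscn1, known for the migratory DCs that enter lymph nodes, were 31.3-fold, 2.77-fold and 3.52-fold higher in the arrays labelled spleen (limma adjusted p = 7.93e-05, 0.0496 and 0.00946). The direction of these 3 genes goes against the labels. So few genes do not settle whether the labels are right, and the groups are called by their labels throughout. All differences are spleen minus lymph node as labelled, on the log2 scale, from limma with Benjamini-Hochberg adjustment over the 12393 genes and a threshold of 0.05. In sorted but bulk material, fewer cells of a type and less RNA per cell cannot be told apart.

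All 8 genes were lower in the arrays labelled spleen than in those labelled lymph node, and in none did the 2 groups overlap. In this direction the groups were separate for 12.7% of all genes. At an unadjusted p under 0.05, 8 of the 8 were lower and 0 higher in limma, where 9.75% of all genes were lower. Of the 8, 3 passed the threshold as lower (Ciita, H2-Oa and H2-DMa), where 1.37% of all genes did, and 0 passed as higher, where 2.03% did. The other 5 differed by -0.47 to -0.87 and did not pass. The median difference of the 8 was -0.73, where that of all genes was -0.005. No filter on level was applied, and all 8 lay above the median level of all genes. Because the list was chosen with earlier results of these data known, its counts are a description.

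**Figure D1:**
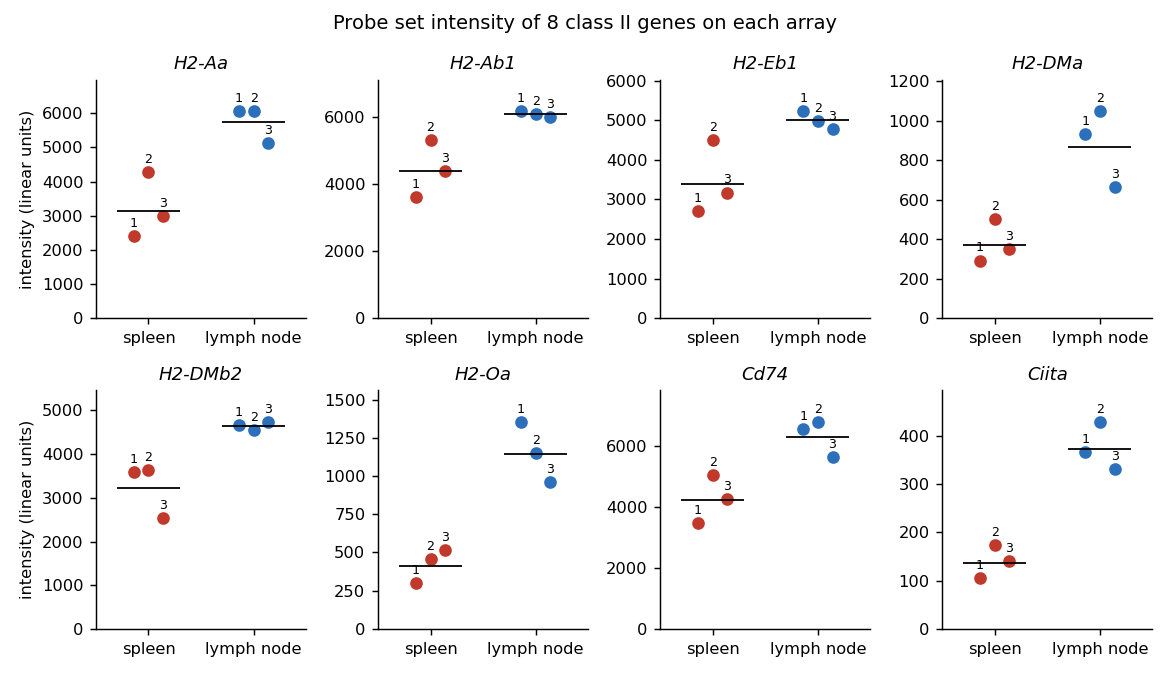
Intensity (linear units, axes from 0) of the brightest probe set of each gene on every array, with spleen in red on the left and lymph node in blue on the right. Numbers are the replicate numbers of the labels, and black lines are geometric means. In every panel the 3 arrays labelled spleen lie below the 3 labelled lymph node.

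Promoter sequences were available from RefSeq (GRCm38.p6, strain C57BL/6J, so BALB/c bases may differ) for 5 of the 8 genes, as windows of 250 bases before to 50 after an annotated start. They are shown because the genes share a known promoter layout, the X box that binds the RFX complex and the Y box that binds NF-Y. The window of H2-Oa is chr17:34092129-34092428 on the plus strand, that of H2-Aa is chr17:34287774-34288073 on the minus strand, and that of H2-Eb1 is chr17:34305617-34305916 on the plus strand. Capitals mark GCAAC, taken as the X box core, and ATTGG, the Y box core.
H2-Oa: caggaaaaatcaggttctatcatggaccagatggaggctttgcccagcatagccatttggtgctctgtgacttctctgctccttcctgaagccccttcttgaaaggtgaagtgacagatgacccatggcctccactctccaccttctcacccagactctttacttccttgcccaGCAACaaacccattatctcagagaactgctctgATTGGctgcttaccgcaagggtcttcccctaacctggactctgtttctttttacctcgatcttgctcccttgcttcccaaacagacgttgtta
H2-Aa: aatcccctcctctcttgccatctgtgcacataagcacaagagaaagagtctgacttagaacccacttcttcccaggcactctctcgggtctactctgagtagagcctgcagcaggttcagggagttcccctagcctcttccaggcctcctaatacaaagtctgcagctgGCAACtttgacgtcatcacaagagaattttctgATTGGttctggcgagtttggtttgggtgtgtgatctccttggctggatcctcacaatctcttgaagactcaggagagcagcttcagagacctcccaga
H2-Eb1: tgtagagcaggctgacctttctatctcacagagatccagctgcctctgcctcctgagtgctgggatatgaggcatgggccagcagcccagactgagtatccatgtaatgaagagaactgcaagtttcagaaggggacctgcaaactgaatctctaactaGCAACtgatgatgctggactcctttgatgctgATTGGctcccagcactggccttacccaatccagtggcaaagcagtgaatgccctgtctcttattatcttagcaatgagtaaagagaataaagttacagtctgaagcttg
From the start of GCAAC to the start of ATTGG there were 33 bases in H2-Oa, 33 in H2-Aa and 32 in H2-Eb1. ATTGG began 43 bases before the annotated start in H2-Oa, 48 before it in H2-Aa and 59 before it in H2-Eb1. The pair of cores in 1 orientation, 25 to 45 bases apart, was searched on both strands of 32851 RefSeq promoters and found in 1.01% of them. GCAAC was chosen after these promoters had been read. With the longer core AGNNACNG, which was chosen before that, the pair was found in 1.07% of promoters and, among the 5 genes, in H2-Eb1 alone. No pair of GCAAC and ATTGG at this spacing was found in the window of H2-DMb2 or in the 2 windows of H2-DMa. ATTGG by itself, on either strand, was found in 37.4% of all promoters and in at least 1 window of each of the 5 genes. A match is a description of these letters and not a tested binding site.

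Ciita had the smallest adjusted p of the 8 genes. Its brightest probe set read 105, 173 and 141 intensity units in the arrays labelled spleen, against 366, 430 and 331 in those labelled lymph node. The gap between the highest spleen array and the lowest lymph node array was 0.93 on the log2 scale, wider than the range of 0.72 among the spleen arrays and of 0.38 among the lymph node arrays. On the log2 scale the level was 7.10 ± 0.36 in spleen and 8.54 ± 0.19 in lymph node (SD, n = 3 arrays each), a difference of -1.45 ± 0.22 (SE) or 2.72-fold (limma adjusted p = 0.0196). Among all genes, 0.67% had a difference further below 0. A second probe set of Ciita read 48.2, 82.4 and 42.3 in spleen arrays and 131.5, 169.6 and 89.6 in lymph node arrays. It had the same sign, again without overlap, at -1.19 ± 0.32 (SE), but did not pass when every probe set was tested on its own (limma adjusted p = 0.104). The call on the brightest probe set was lost without lymph node array 1 (limma adjusted p = 0.101) or 2 (0.106). That probe set has the name ending _a_at, and with probe sets ending in _x_at, _s_at or _a_at left out, the second one represented the gene and did not pass (limma adjusted p = 0.0918 over the genes left).

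H2-Oa encodes the alpha chain of DO, the inhibitor of the DM peptide editor. It read 298, 457 and 517 intensity units in the arrays labelled spleen and 1356, 1153 and 964 in those labelled lymph node. Even the lowest lymph node array was above the highest spleen array by 0.90 on the log2 scale. The log2 level was 8.69 ± 0.42 in spleen and 10.16 ± 0.25 in lymph node (SD, n = 3 arrays each). The difference of -1.47 ± 0.25 (SE), or 2.78-fold, passed (limma adjusted p = 0.0266), and 0.62% of all genes lay further below 0. The call was lost without spleen array 1 (limma adjusted p = 0.0559), lymph node array 1 (0.125) or lymph node array 2 (0.119). The beta chain of DO, H2-Ob, had no probe set of its own symbol. A probe set annotated to both Gm20506 and H2-Ob read 59.1, 111.5 and 73.4 in spleen arrays and 322, 281 and 293 in lymph node arrays, so its signal cannot be assigned to either gene. Tested as a probe set, it was lower in spleen, with a difference of -1.92 ± 0.24 (SE; limma adjusted p = 0.0128 over all probe sets, of which 1.12% passed as lower).

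H2-DMa encodes the alpha chain of DM, which exchanges CLIP for peptide. Its single probe set read 292, 504 and 349 intensity units in the arrays labelled spleen and 933, 1051 and 665 in those labelled lymph node. The groups did not overlap, with lymph node array 3 nearest to the spleen arrays. The log2 level was 8.54 ± 0.40 in spleen and 9.76 ± 0.34 in lymph node (SD, n = 3 arrays each), a difference of -1.22 ± 0.26 (SE) or 2.33-fold. It passed narrowly (limma adjusted p = 0.0498), and 1.12% of all genes lay further below 0. With each array left out in turn it passed in 1 of 6 fits, that without spleen array 2 (limma adjusted p = 0.0391 to 0.195 over the 6). Median centring also ended the call (limma adjusted p = 0.0524), as did leaving out the probe sets with those 3 endings (0.0508), where its own value was the same. Over all alternatives, those with 1 array left out included, H2-DMa passed in 7 of 20.

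H2-DMb2 encodes one of the alternative beta chains of mouse DM. It read 3598, 3636 and 2543 intensity units in the arrays labelled spleen and 4657, 4544 and 4745 in those labelled lymph node. The lymph node arrays differed by 0.06 on the log2 scale among themselves, and the spleen arrays by 0.52. The difference of -0.53 ± 0.19 (SE) did not pass (limma adjusted p = 0.174). The near-identical copy H2-DMb1 shares probe sets with it. Both probe sets annotated to H2-DMb2 and H2-DMb1 together also read lower in spleen arrays without overlap, with differences of -0.80 ± 0.23 and -1.36 ± 0.32 (SE), and neither passed (limma adjusted p = 0.120 and 0.0699 over all probe sets). The size of the difference for DM beta chains is therefore uncertain.

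None of the chain genes passed by its brightest probe set. H2-Aa, the alpha chain of the I-A molecule, read 2394, 4283 and 2996 intensity units in the arrays labelled spleen and 6059, 6068 and 5118 in those labelled lymph node. The difference was -0.87 ± 0.23 (SE), 1.83-fold, and did not pass (limma adjusted p = 0.0894). Its other probe set gave -0.48 ± 0.15 (SE). The log2 level of H2-Aa was 11.61 ± 0.42 in spleen and 12.48 ± 0.14 in lymph node (SD, n = 3 arrays each).

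H2-Ab1, the beta chain that pairs with H2-Aa in I-A, showed how far the probe set mattered. Its brightest probe set read 3625, 5324 and 4399 intensity units in the arrays labelled spleen and 6198, 6100 and 6021 in those labelled lymph node. The lymph node arrays lay within 0.04 of each other on the log2 scale, and all were above the spleen arrays. The difference was -0.47 ± 0.18 (SE; limma adjusted p = 0.210). A second H2-Ab1 probe set read 531, 1167 and 1009 in spleen arrays and 2374, 2565 and 1903 in lymph node arrays, a difference of -1.40 ± 0.30 (SE) or 2.65-fold. The third read 492, 1238 and 954 in spleen arrays and 2452, 2507 and 1838 in lymph node arrays, a difference of -1.43 ± 0.34 (SE) or 2.69-fold. All 3 had the same sign, and none passed over all probe sets (limma adjusted p = 0.223, 0.0598 and 0.0724). The mean of the 3 probe sets gave -1.10 (limma adjusted p = 0.0637 over all genes).

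H2-Eb1, the beta chain of the I-E molecule, read 2700, 4499 and 3175 intensity units in the arrays labelled spleen and 5237, 4992 and 4781 in those labelled lymph node. Spleen array 2 came within 0.09 log2 units of the lowest lymph node array, the narrowest gap of the 8 genes. The difference was -0.57 ± 0.21 (SE; limma adjusted p = 0.201). The partner chain H2-Ea had 3 probe sets, of which the brightest differed by -0.25 ± 0.15 (SE; limma adjusted p = 0.425) and another by -0.63 ± 0.17 (SE; 0.105 over all probe sets). The third read 6.0 to 13.7 in spleen arrays and 12.2 to 17.4 in lymph node arrays, near the bottom of the scale.

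Cd74, the invariant chain that escorts new class II molecules, had 1 probe set. It read 3496, 5062 and 4269 intensity units in the arrays labelled spleen and 6575, 6815 and 5640 in those labelled lymph node. The groups did not overlap, with a gap of 0.16 on the log2 scale. The difference was -0.58 ± 0.19 (SE) and did not pass (limma adjusted p = 0.147).

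By probe set, the 8 genes had 12 probe sets with 1 symbol, and 3 of the genes had more than 1. In all 12, every spleen array lay below every lymph node array, and the same held for the 2 probe sets shared by H2-DMb2 and H2-DMb1. In this direction the groups were separate for 12.5% of all probe sets. Tested over all probe sets, 2 of the 12 passed as lower, where 1.12% of all probe sets did. They were those of H2-Oa and Ciita that also represent the genes. Probe sets of a gene read the same transcripts and are not replicates.

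**Figure D2:**
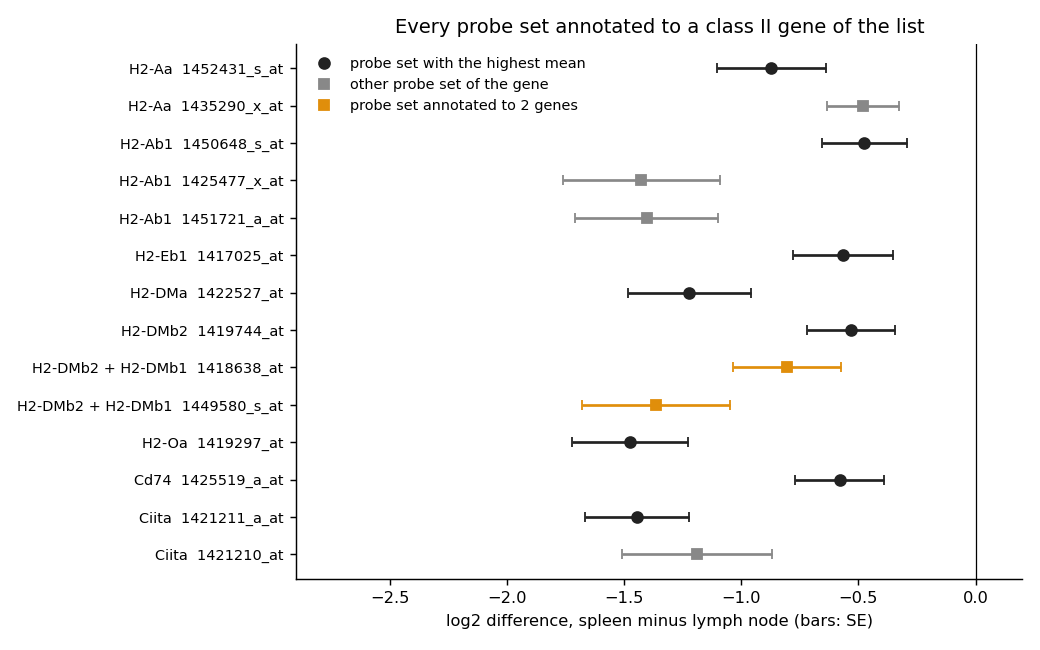
Log2 difference (spleen minus lymph node, points) with its SE (bars) for each of the 14 probe sets annotated to the 8 genes. Circles are the probe sets that represent a gene, grey squares its other probe sets, and orange squares those annotated to 2 genes. All points lie below 0, and the 3 probe sets of H2-Ab1 span -0.47 to -1.43.

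The SD of the log2 values was larger among the arrays labelled spleen for all 8 genes, as it was for 66.1% of all genes. Log2 values of all probe sets correlated at r = 0.967 to 0.978 between spleen arrays and at r = 0.982 to 0.991 between lymph node arrays. Spleen array 2 was the highest of the spleen arrays in 7 of the 8, and H2-Oa was highest in spleen array 3. Spleen array 1 was the lowest of all 6 arrays in 7 of the 8, the exception being H2-DMb2. Among the lymph node arrays, array 3 was the lowest in 7 of the 8, again except for H2-DMb2. How many of all genes had these orders of arrays was not counted, so they are not shown to be particular to the class II genes.

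Whether members changed unequally was asked of 3 pairs within arrays, which removes array scaling. H2-DMa minus H2-Oa was -0.026, 0.14 and -0.57 in the arrays labelled spleen and -0.54, -0.13 and -0.53 in those labelled lymph node, a difference of 0.25 with overlapping groups (two-sided exact permutation p = 0.4, adjusted p = 0.4 over the 3 pairs). H2-Ab1 minus Ciita was 5.11, 4.94 and 4.96 in spleen and 4.08, 3.83 and 4.19 in lymph node. The groups did not overlap, and the difference was 0.97 (two-sided exact permutation p = 0.1, adjusted p = 0.15). With the mean of all probe sets of each gene it was 0.22 (two-sided exact permutation p = 0.4). H2-Aa minus H2-Ab1 differed by -0.40 (two-sided exact permutation p = 0.1, adjusted p = 0.15), but by 0.43 with the mean of all probe sets (p = 0.1, exact), so its direction rested on the probe sets. With 3 against 3 arrays the smallest possible p is 0.1.

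Over the 6 arrays, the genes with log2 profiles nearest to that of Ciita, each centred on its own mean, were Slfn2, a schlafen family gene, and Timm17b, a subunit of the mitochondrial import machinery. Their root mean square differences from Ciita were 0.083 and 0.093 log2 units. Rab8a, a small GTPase of vesicle traffic, followed at 0.12, then Ggt5, a gamma-glutamyltransferase, at 0.14 and the receptor gene Gpr35 at 0.15. Of the class II genes, H2-DMa ranked 10 at 0.17 and H2-Oa ranked 20 at 0.20 among 12392 genes. H2-Aa ranked 125, Cd74 ranked 462, H2-Eb1 ranked 540, H2-Ab1 ranked 785 and H2-DMb2 ranked 1151. These are descriptions over 6 arrays in 2 groups.

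In the RefSeq gene table, which was used for gene order only, 6 of the 8 genes lie on chromosome 17, while Ciita is on chromosome 16 and Cd74 on chromosome 18. From H2-Oa to H2-Eb1 that table lists 13 protein-coding genes, among them 5 measured genes that are not class II genes. Those neighbours were Brd2, a bromodomain gene, the immunoproteasome subunits Psmb9 and Psmb8, and the peptide transporter genes Tap1 and Tap2 of class I presentation. None of the 5 passed, and their differences were -0.05 ± 0.21 for Brd2, -0.22 ± 0.25 for Psmb9, 0.34 ± 0.20 for Tap1, 0.13 ± 0.19 for Psmb8 and -0.26 ± 0.23 for Tap2 (SE; limma adjusted p = 0.432 to 0.932). Their median was -0.05, with 3 of 5 below 0. The difference between class II genes and these neighbours was not tested.

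**Figure D3:**
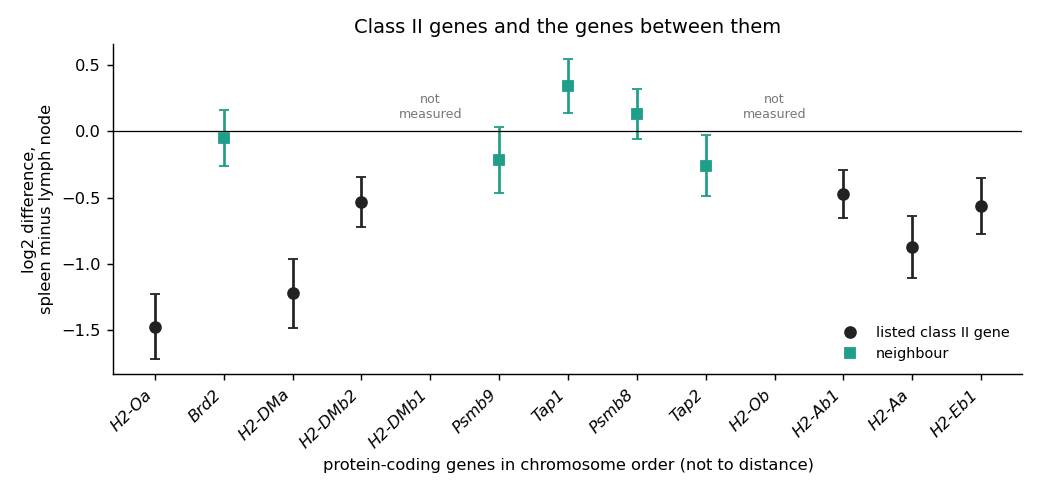
Log2 difference (spleen minus lymph node) with SE for the 13 protein-coding genes from H2-Oa to H2-Eb1, in chromosome order and not to distance. Black circles are the class II genes of the list and green squares the 5 neighbours. The neighbours lie between -0.26 and 0.34, and the class II genes between -1.47 and -0.47. H2-DMb1 and H2-Ob had no probe set of their own.

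Other genes of the pathway were counted in 5 lists of 38 symbols, of which 28 were measured. Of these, 1 passed as lower and 1 as higher in the arrays labelled spleen, and their median difference was -0.17. In the list of other class II chains 1 gene, H2-Ea, was measured, with the values above. Of the 7 measured factors that bind class II promoters 0 passed in limma or had an unadjusted p under 0.05, and their median was -0.11. The 2 furthest from 0 were the NF-Y subunits Nfya at -0.45 ± 0.21 (SE; limma adjusted p = 0.304) and Nfyb at 0.43 ± 0.26 (SE; 0.438). Rfx5, the X box factor whose loss in humans causes bare lymphocyte syndrome, read 468, 481 and 504 in spleen arrays and 559, 505.5 and 556.5 in lymph node arrays, a difference of -0.16 ± 0.15 (SE; limma adjusted p = 0.636).

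Of 8 measured regulators of Ciita 0 passed in limma, 4 being lower and 1 higher at an unadjusted p under 0.05, with a median of -0.30. Spi1, the gene of the myeloid factor PU.1, read 61.7, 113.1 and 96.8 in the arrays labelled spleen and 231, 311 and 163 in those labelled lymph node, a difference of -1.37 ± 0.30 (SE) that narrowly missed the threshold (limma adjusted p = 0.0549). Irf8, a factor of CD8-lineage and plasmacytoid DCs, read 458, 1040 and 1657 in spleen arrays and 141, 393 and 438.5 in lymph node arrays. Its difference of 1.67 ± 0.56 (SE) had the opposite sign and did not pass (limma adjusted p = 0.156).

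Among 5 measured genes of surface turnover and tetraspanins, 1 was lower and 0 were higher, with a median of -0.65. March1, March8 and Cd63 of this list were not measured, and all the measured genes but Cd83 were tetraspanins. The lower gene was Cd82, a tetraspanin of antigen-presenting cells. It read 76.1, 106.5 and 93.9 in the arrays labelled spleen and 194, 219 and 157.5 in those labelled lymph node. The groups were separate, with a difference of -1.05 ± 0.20 (SE; limma adjusted p = 0.0373). The list of 7 genes that process the invariant chain and antigen had 0 lower and 1 higher, with a median of 0.41. The gene was Ctsl, a cathepsin known to degrade the invariant chain in thymic epithelium, at 776, 776 and 2768 in spleen arrays and 68.2, 77.8 and 249 in lymph node arrays. Its difference was 3.43 ± 0.63 (SE; limma adjusted p = 0.0338), and array 3 was the highest in each group. Ctss, the cathepsin that does this in DCs, differed by -0.24 ± 0.16 (SE; limma adjusted p = 0.481).

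**Figure D4:**
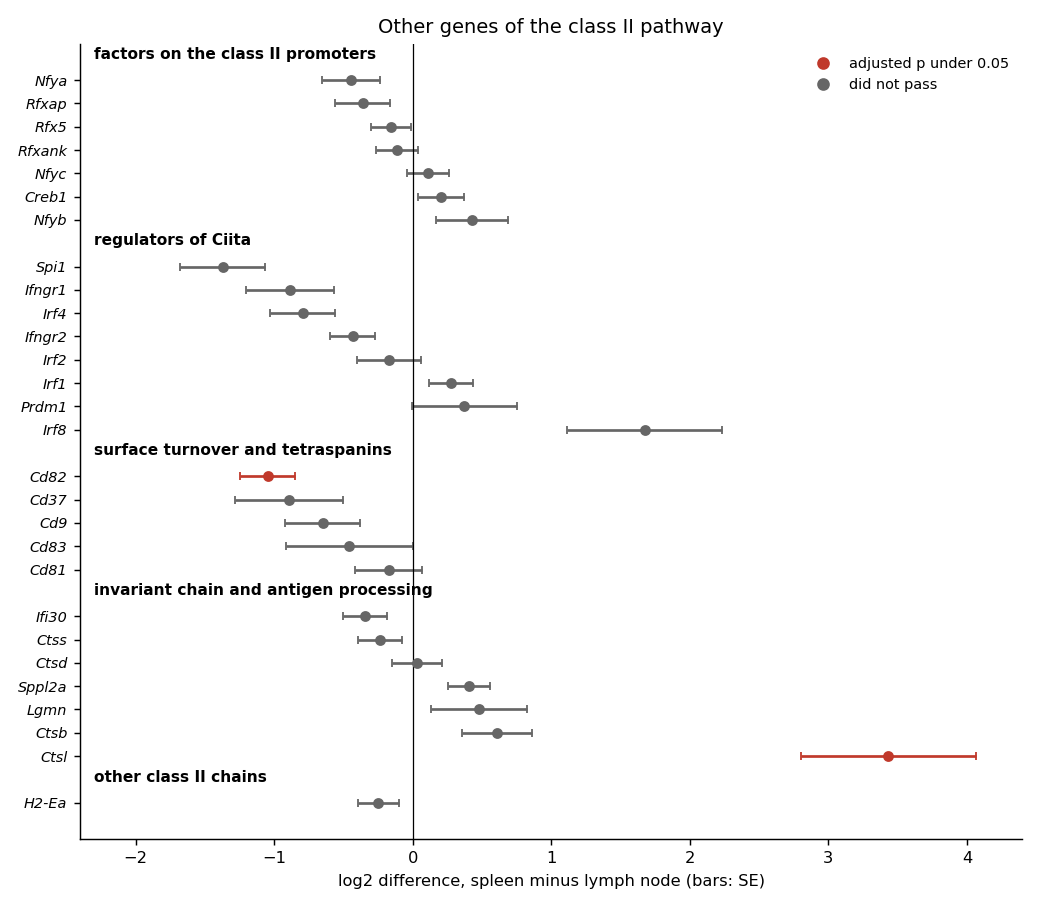
Log2 difference (spleen minus lymph node) with SE for the 28 measured genes of the pathway lists, sorted within each list. Red points passed an adjusted p of 0.05, namely Cd82 (-1.05) and Ctsl (3.43), and grey points did not.

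Other measures moved with the class II genes. The bacterial poly-A controls, RNA added to each preparation, had mean log2 levels of 8.24, 7.71 and 8.29 in the arrays labelled spleen and 6.82, 7.17 and 7.31 in those labelled lymph node. The ratio of the 5′ to the 3′ control probe set of Gapdh was 0.092, 0.105 and 0.114 in spleen arrays and 0.165, 0.154 and 0.145 in lymph node arrays. That of 18S ribosomal RNA was 0.267, 0.369 and 0.335 in spleen and 0.559, 0.552 and 0.473 in lymph node. All 3 measures separated the groups, whereas the corresponding ratio of beta-actin, 1.25, 1.14 and 1.16 in spleen and 1.19, 1.13 and 1.27 in lymph node, did not. In a fit that adjusted for the poly-A level, the differences were -0.89 for Ciita, -0.95 for H2-Oa and -0.27 for H2-DMa. With the Gapdh ratio they were -0.62, 0.078 and -0.31, and with either covariate 0 of the 8 genes passed in limma or had an unadjusted p under 0.05. Of all 12393 genes, too, 0 passed in limma with either covariate. At an unadjusted p under 0.05 there were 723 genes with the poly-A level and 787 with the Gapdh ratio. The loss of calls was therefore not particular to the class II genes. Covariates that separate the groups cannot be told apart from the labels.

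**Figure D5:**
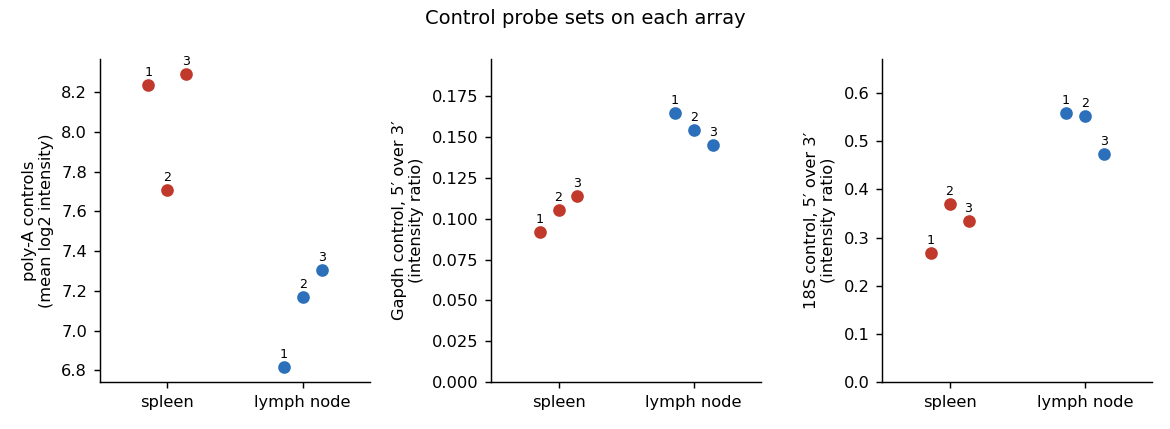
Control probe sets on each array, with spleen in red on the left and lymph node in blue on the right, numbered by replicate. From left to right, the panels show the mean log2 intensity of the poly-A controls (axis not from 0) and the 5′ over 3′ intensity ratios of Gapdh and 18S ribosomal RNA (axes from 0). The groups do not overlap in any panel.

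Markers of cell types differed as well. Of 8 measured conventional DC markers 2 were lower in the arrays labelled spleen, Itgax and Sirpa, and 0 higher. The other 6 did not pass, and Kmo at 0.38 and Itgam at 0.10 lay above 0. The summed intensity of the 8 was 3938 to 4616 in spleen arrays and 6083 to 7059 in lymph node arrays. Much of that gap lay in Itgax, given above, and in Sirpa. Sirpa read 598, 697 and 676 in spleen arrays and 1538, 1353 and 1622 in lymph node arrays. Of 11 measured plasmacytoid DC markers 4 were higher (Ccr9, Blnk, Klk1 and Il7r) and 0 lower, with sums of 2438 to 7289 in spleen and 757 to 1618 in lymph node. The other 7 did not pass, and 1 of them, Irf7 at -0.11, lay below 0. Siglech and Runx2 were not measured. Of 9 measured markers of B cells, which also carry class II, 2 were lower (Cr2 and Cd22) and 0 higher, with sums of 462 to 760 in spleen and 849 to 1342 in lymph node. At an unadjusted p under 0.05, 3 were lower and 0 higher. Blk read 17.8 to 23.2 in spleen arrays and 24.6 to 37.7 in lymph node arrays and did not pass (limma adjusted p = 0.146). Of the defining B cell genes, Cd79a, Ms4a1 and Pax5 read 10.5 to 38.0 in spleen arrays and 12.9 to 24.1 in lymph node arrays. Cd79b read 44.9 to 63.1 in spleen and 23.9 to 44.9 in lymph node, and Ighm read 194 to 551 in spleen and 275 to 923 in lymph node. Of 9 macrophage markers 0 passed in limma, 2 being lower at an unadjusted p under 0.05. Differences lay below 0 in 8 of them, and C1qb was at 1.30 ± 0.89 (SE). Their sums were 705 to 1021 in spleen and 1244 to 1950 in lymph node, with Csf1r and Cd68 the brightest. Csf1r overlapped between groups, at 624, 422 and 275 in spleen arrays and 583, 443.5 and 1089 in lymph node arrays. Mertk and Fcgr1 were under 16 intensity units on every array. Of 8 T cell markers 1 was higher (Cd28), with sums of 361 to 953 in spleen and 140 to 382 in lymph node. Of 5 NK cell markers 0 passed in limma or had an unadjusted p under 0.05, with sums of 356 to 1414 in spleen and 335 to 824 in lymph node. Of 7 neutrophil markers 1 was lower (Camp), with sums of 62.7 to 128.1 in spleen and 175.5 to 715 in lymph node. At an unadjusted p under 0.05, 4 were lower. Camp read 7.1 to 9.1 in spleen arrays and 15.1 to 31.8 in lymph node arrays, near the bottom of the scale. S100a9 and S100a8 differed by -3.44 ± 0.76 and -2.63 ± 0.59 (SE) and narrowly missed the threshold (limma adjusted p = 0.0536 and 0.0569). In a fit that adjusted for the mean level of plasmacytoid DC markers, Ciita differed by -1.29, H2-Oa by -1.62 and H2-DMa by -0.68. In that fit 0 of the 8 passed in limma, 2 having an unadjusted p under 0.05. Of all 12393 genes, 0 passed there as lower and 1 as higher, and 1795 had an unadjusted p under 0.05. The loss of calls was therefore not particular to the class II genes. The mean log2 level of the plasmacytoid DC markers was 7.05 to 8.53 in spleen and 5.37 to 6.36 in lymph node. It separated the groups, so this covariate too cannot be told apart from the labels. The part of the other cell types in the class II differences was not tested.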

How the data were processed

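Total RNA of 6 samples was measured, 3 labelled spleen and 3 labelled lymph node. Per the labels' protocols, RNA was amplified from a few nanograms after extraction with carrier RNA. The authors deposited intensity values of 22690 probe sets on a linear scale, and RMA and limma are named in the submitters' processing notes without versions, and no build is named. The intensity values were transformed to log2. Of the probe sets, 64 were controls, and 20380 others had 1 gene symbol, for 12393 genes. Each gene was represented by its brightest probe set. Groups were compared with limma 3.58.1 in R 4.3.3 (lmFit and eBayes) by a two-sided test whose p-values were adjusted over all genes after Benjamini and Hochberg. The functions were tested on simulated data. Pairs of genes were compared with exact permutation tests (scipy 1.17.1). The 8 genes and all lists were chosen with earlier results of these data known. Named were the 8 genes, list genes past the threshold, otherwise the 2 with the largest difference in a list, and the 5 genes nearest to Ciita. Rfx5, Ctss, Cd79a, Cd79b, Ms4a1, Pax5, Ighm and the neighbouring genes were added after their values were seen. The same holds for Kmo, Itgam, Blk, C1qb, Csf1r, Cd68, S100a8 and S100a9. Alternatives covered normalization, filter, variance model, probe set choice, offset, covariates, replicates and threshold. The ratio of Gapdh controls as a covariate and the core GCAAC were added after seeing the data.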

Additional observations from a re-analysis of the deposited data

How the results depend on the processing

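The number of the 8 genes past the threshold as lower, 3 with all arrays, lay between 0 and 4 with 1 array left out. It was 1 without spleen array 1 and 0 without lymph node array 1 or 2. It was 1 without probe sets ending in _x_at, _s_at or _a_at, where Ciita and H2-DMa lost their calls and H2-Aa, H2-Ab1 and Cd74, which had not passed, were unmeasured, and 0 with the poly-A level, the plasmacytoid DC marker level or the Gapdh ratio as a covariate and at a threshold of 0.01. The number higher was 0 in every alternative run. Of 157 differences recomputed for the 8 genes, 5 changed sign: H2-Eb1 was 0.18 after adjustment for the poly-A level and 0.021 with the Gapdh ratio, with which H2-Ab1 was 0.048, H2-Oa 0.078 and Cd74 0.093. H2-Aa minus H2-Ab1 was 0.43 with the mean of all probe sets and -0.48 to -0.34 with 1 array left out, H2-DMa minus H2-Oa was 0.11 to 0.46 and H2-Ab1 minus Ciita was 0.87 to 1.05. For these changes the cause was not tested.

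Of all genes, 170 were lower and 251 higher. These counts were 14 to 179 lower and 33 to 296 higher with 1 array left out: 40 and 90 without spleen array 1, 104 lower without lymph node array 3, and, of the lymph node arrays, 15 and 41 without array 1 and 14 and 33 without array 2. They were 267 lower with the filter at the median level, 339 lower and 425 higher with array weights, 19 and 44 at a threshold of 0.01, 0 and 1 with the plasmacytoid DC marker level, and 0 and 0 in limma with the poly-A level (723 genes at an unadjusted p under 0.05) or the Gapdh ratio (787 genes). Of the pathway genes, 1 lower and 1 higher became 2 lower with the filter, with trend and robust or with array weights, and 2 lower and 2 higher with the replicate block. They became 0 lower with the mean of all probe sets and without both arrays numbered 3, 0 higher without probe sets of those endings and with the offset of 16, and 0 of either with the covariates and at 0.01. With 1 array left out they were 0 to 2 lower and 0 to 1 higher: 0 lower and 0 higher without spleen array 1 or lymph node array 1 or 2, 0 lower without spleen array 3, and 2 lower without spleen array 2. Deviations from the group means of same-numbered arrays correlated across genes at 0.02, 0.24 and 0.16. Between spleen and lymph node arrays with different numbers the correlations were -0.28 to 0.13. Whether the replicate numbers pair the arrays is not settled by these values. With the replicate block 3 of the 8 genes were lower, the same number as without it.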
